A study of Mus musculus with 6 samples.

Results

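The genes described here are the receptors for tumour necrosis factor (TNF) and the proteins that act closest to them. They were chosen by name, as 10 genes: the receptors Tnfrsf1a (TNFR1) and Tnfrsf1b (TNFR2), the ligands Tnf and Lta, the death domain adaptors Tradd and Ripk1, the TRAF adaptors Traf1 and Traf2, and the ubiquitin ligases Birc2 and Birc3. All 10 were found among the 32377 mouse gene identifiers of the count table, and all 10 passed the filter on low counts that left 17022 genes for testing. The libraries were made from poly(A)-selected RNA of mouse cells in 2 groups of 3, labelled TNFR2-deficient Treg and TNFR2 positive Treg, where Treg cells are the regulatory T cells that restrain other immune cells. The labels give for neither group a tissue, a sort or gate, a strain, an age, a treatment or the way in which TNFR2 was lost, and they do not say whether the libraries of a group came from separate animals. The p-values below therefore rest on how far these libraries differ from each other, and that spread may be technical. The comparison asks which transcripts differ between the groups, and folds are TNFR2-deficient over TNFR2 positive.

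TNF and lymphotoxin alpha bind both receptors. TNFR1 is made by most cells and carries a death domain, through which TRADD and the kinase RIPK1 are recruited. TNFR2 is found mainly on lymphocytes, is abundant on Treg cells, lacks a death domain and recruits TRAF2 directly. TRAF2, with TRAF1, brings in cIAP1 and cIAP2, the products of Birc2 and Birc3, which attach ubiquitin chains to RIPK1 and so open the way to NF-kB. TRAF1, cIAP2, TNF and lymphotoxin alpha are themselves known NF-kB targets.

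Total counts were 22465991 to 24038118 in the TNFR2-deficient libraries and 19296082 to 23587552 in the TNFR2 positive libraries, so that a floor of 3 counts stood at 0.125 to 0.134 CPM in TNFR2-deficient libraries and 0.127 to 0.156 CPM in TNFR2 positive libraries (CPM, the count as a part of the library total, with TMM scaling for all levels below; the floor covers counting error only). TNFR2 positive library 1 stood apart from its group, with a chi-square per gene of 13.9 and 18.5 against libraries 2 and 3 and of 2.45 between those. The Treg label was checked against 10 Treg markers, of which 10 fell and 0 rose (edgeR adjusted p below 0.05), with a summed level of 35.6 to 41.6 CPM in TNFR2-deficient and 567.8 to 626.9 CPM in TNFR2 positive libraries. Foxp3, the transcription factor that defines Treg cells, was at 1.44 ± 0.0974 CPM in TNFR2-deficient and 75.5 ± 2.14 CPM in TNFR2 positive libraries (SD, n = 3 each). Relative to the T cell gene Trac, Foxp3 was at 0.692% in TNFR2-deficient and 53.5% in TNFR2 positive libraries. By the 10 Treg markers the Treg label is not borne out for the TNFR2-deficient libraries. All 10 markers of double-positive thymocytes rose, at 3472 to 3574 CPM in sum in TNFR2-deficient and 414.3 to 433.6 CPM in TNFR2 positive libraries, with the recombinase gene Rag1 at 917.9 ± 72.7 CPM in TNFR2-deficient and 3.31 ± 0.0785 CPM in TNFR2 positive libraries. Of 10 B cell markers 4 rose and 3 fell, and their sum of 8434 to 8786 CPM in TNFR2-deficient and 7440 to 7521 CPM in TNFR2 positive libraries was above that of 8 T cell markers in each group (1671 to 1768 CPM in TNFR2-deficient and 945.7 to 1002 CPM in TNFR2 positive libraries, with 6 of the 8 higher and 1 lower). Macrophage markers were at 880.0 to 954.8 CPM in TNFR2-deficient and 347.9 to 381.8 CPM in TNFR2 positive libraries, with 10 of 10 higher. NK and cytotoxic markers were at 69.1 to 70.8 CPM in TNFR2-deficient and 194.0 to 198.7 CPM in TNFR2 positive libraries, with 9 of 10 lower. Dendritic cell markers were at 3216 to 3353 CPM in TNFR2-deficient and 2237 to 2533 CPM in TNFR2 positive libraries, a sum made up mostly of H2-Aa, which B cells also express; 1 of the 10 rose and 7 fell. Erythroid markers were at 18080 to 20620 CPM in TNFR2-deficient and 4238 to 7012 CPM in TNFR2 positive libraries, with 8 of 8 higher. Neutrophil markers were at 254.0 to 276.2 CPM in TNFR2-deficient and 240.7 to 266.5 CPM in TNFR2 positive libraries, with 3 higher and 2 lower of 8 tested, and platelet markers at 37.0 to 39.9 CPM in TNFR2-deficient and 36.7 to 39.2 CPM in TNFR2 positive libraries, with 4 higher and 1 lower of 5 tested. None of the markers in the table was at 0 counts over a whole group; the platelet marker Gp1bb had no row. In bulk libraries fewer cells of a type and less RNA per cell cannot be told apart, and the part that these other cell types play in the changes below was not tested.

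The promoter windows of the receptors and of Tnf are shown because the receptors moved in opposite directions and Tnf is their ligand. They run from 250 bases before to 50 after the start site (RefSeq, GRCm38.p6, on the strand of the gene): chr6:125349473-125349772, plus strand, for Tnfrsf1a; chr4:145246821-145247120, minus strand, for Tnfrsf1b; and chr17:35201958-35202257, minus strand, for Tnf. Capitals mark matches to GGGCGG, the core of the Sp1 site, on either strand, and to TATAAA, the TATA box.
Tnfrsf1a: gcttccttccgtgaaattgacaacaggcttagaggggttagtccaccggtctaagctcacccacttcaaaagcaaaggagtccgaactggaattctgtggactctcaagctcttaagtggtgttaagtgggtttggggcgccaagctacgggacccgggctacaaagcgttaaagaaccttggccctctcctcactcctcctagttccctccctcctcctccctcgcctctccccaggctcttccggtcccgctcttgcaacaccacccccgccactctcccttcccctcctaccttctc
Tnfrsf1b: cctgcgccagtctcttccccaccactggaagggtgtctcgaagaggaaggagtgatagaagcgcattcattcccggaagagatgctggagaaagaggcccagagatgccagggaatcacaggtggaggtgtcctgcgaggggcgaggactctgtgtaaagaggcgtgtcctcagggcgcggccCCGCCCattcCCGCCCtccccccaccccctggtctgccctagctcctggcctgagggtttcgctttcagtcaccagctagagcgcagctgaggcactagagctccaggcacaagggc
Tnf: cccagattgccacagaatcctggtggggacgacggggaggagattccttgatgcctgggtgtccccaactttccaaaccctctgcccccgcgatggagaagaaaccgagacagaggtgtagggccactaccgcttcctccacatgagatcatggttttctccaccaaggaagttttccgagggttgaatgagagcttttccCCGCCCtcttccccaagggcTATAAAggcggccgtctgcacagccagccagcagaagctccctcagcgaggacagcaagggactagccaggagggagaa
The Tnfrsf1b window held 2 matches to GGGCGG, both on the opposite strand, with the first base of each at positions -67 and -57, and the Tnfrsf1a window held neither motif. The Tnf window held TATAAA at position -29 and GGGCGG at -49 on the opposite strand. Searched on both strands, GGGCGG was found in 35.7% and TATAAA in 13.6% of all 32851 promoter windows of this length. The NF-kB consensus, found in 8.46% of the windows, had no match in the windows of the 9 genes that have one in the table, which says only that those letters are not in these stretches.

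The receptors changed in opposite directions. Tnfrsf1b (ENSMUSG00000028599) was at 8.30, 7.99 and 7.32 CPM in TNFR2-deficient libraries, against 84.6, 84.2 and 80.2 CPM in TNFR2 positive libraries. Its level was thus low but far above the count floor in each TNFR2-deficient library, with 545 reads over the group against 5333 reads in the TNFR2 positive group. The gene was 10.5-fold lower (log2 fold change -3.40, SE 0.0738, 95% interval -3.56 to -3.24, edgeR quasi-likelihood adjusted p = 1.7e-11), which is the direction of the label, in libraries where Foxp3 was 52.1-fold lower. Tnfrsf1a (ENSMUSG00000030341) was at 39.4, 39.5 and 38.3 CPM in TNFR2-deficient libraries, against 16.7, 17.96 and 17.2 CPM in TNFR2 positive libraries. No library of either group overlapped the other group, and Tnfrsf1a was 2.26-fold higher (log2 fold change 1.18, SE 0.0662, 95% interval 1.03 to 1.32, edgeR adjusted p = 4.13e-08). Scaled by the T cell gene Trac the rise of Tnfrsf1a was 0.61 on the log2 scale (edgeR adjusted p = 3.67e-06). Per kilobase of exons, TNFR1 transcripts made up 87.5%, 87.9% and 88.5% of the sum of both receptors in TNFR2-deficient libraries, against 22.5%, 23.9% and 24.1% in TNFR2 positive libraries. TNFR1 was therefore the more abundant receptor transcript in 3 of 3 TNFR2-deficient libraries and TNFR2 in 3 of 3 TNFR2 positive libraries; the two-sided exact permutation p of this share was 0.1, the smallest that 3 against 3 libraries allow. Macrophages express TNFR1, and the macrophage markers were higher in the same TNFR2-deficient libraries, as were the double-positive thymocyte and erythroid markers. Whether any of these cell types bears on the level of Tnfrsf1a was not tested.

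**Figure D1:**
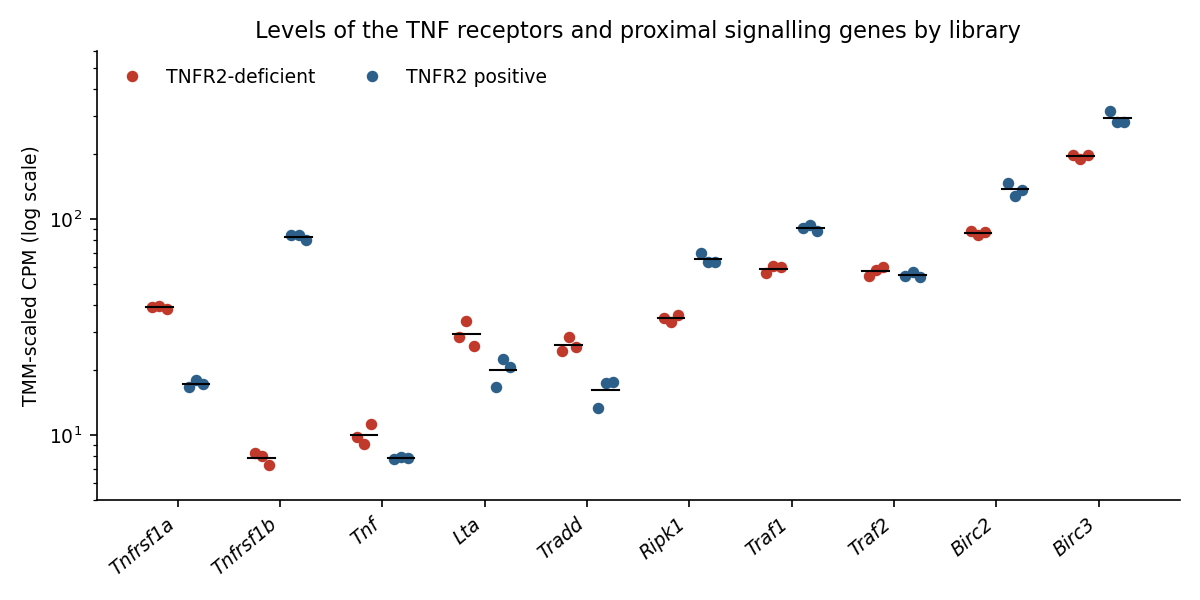
Level of each gene in each library, as TMM-scaled CPM on a log axis; points are libraries and black lines group means (n = 3 each), with TNFR2-deficient at the left of each pair. The groups do not overlap for any gene but Traf2, and Tnfrsf1b lies near 8 CPM in TNFR2-deficient and above 80 CPM in TNFR2 positive libraries.

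The ligands were higher in TNFR2-deficient libraries by a smaller amount, a rise that was not seen relative to Trac. Lta (ENSMUSG00000024402), which encodes lymphotoxin alpha, was at 28.4, 33.9 and 25.9 CPM in TNFR2-deficient libraries, against 16.7, 22.6 and 20.7 CPM in TNFR2 positive libraries. It was 1.48-fold higher (log2 fold change 0.56, SE 0.12, edgeR adjusted p = 0.00126), but scaled by Trac its log2 fold change was -0.0046 (edgeR adjusted p = 0.975). Tnf (ENSMUSG00000024401) was at 9.77, 9.07 and 11.3 CPM in TNFR2-deficient libraries, against 7.76, 7.93 and 7.87 CPM in TNFR2 positive libraries. The TNFR2 positive libraries lay within a narrow range (SD 0.0872 CPM), while TNFR2-deficient library 3 stood above the other TNFR2-deficient ones. With 504 reads over the TNFR2 positive group, counting error alone is larger than that SD, so the narrow range is not read as precision. Tnf was 1.28-fold higher (log2 fold change 0.36, SE 0.112, edgeR adjusted p = 0.0133). That call was lost without TNFR2-deficient library 3 (log2 fold change 0.26, edgeR adjusted p = 0.0917) and after correction for gene length (0.24, adjusted p = 0.0793). The direction of Tnf turned when libraries were scaled by Trac (log2 fold change -0.20, edgeR adjusted p = 0.133). Per kilobase, Lta made up 77.4% ± 4.23 of the sum of both ligands in TNFR2-deficient and 74.9% ± 2.76 in TNFR2 positive libraries (SD, n = 3 each), a difference within the spread of the libraries (two-sided exact permutation p = 0.4).

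The death domain adaptors moved apart. Tradd (ENSMUSG00000031887), which joins TNFR1 to RIPK1 and TRAF2, was at 24.4, 28.5 and 25.6 CPM in TNFR2-deficient libraries, against 13.3, 17.4 and 17.7 CPM in TNFR2 positive libraries. The groups did not overlap, with TNFR2 positive library 1 the lowest of all. Tradd was 1.63-fold higher (log2 fold change 0.70, SE 0.108, edgeR adjusted p = 0.000121), at 0.57 without TNFR2 positive library 1 (edgeR adjusted p = 7.21e-06) and 0.13 when scaled by Trac, where the call was lost (edgeR adjusted p = 0.283). Ripk1 (ENSMUSG00000021408), the kinase that is the scaffold for NF-kB signalling from TNFR1 and can also start cell death, was at 34.8, 33.5 and 36.0 CPM in TNFR2-deficient libraries, against 69.4, 63.5 and 63.2 CPM in TNFR2 positive libraries. It was 1.88-fold lower (log2 fold change -0.91, SE 0.065, 95% interval -1.05 to -0.77, edgeR adjusted p = 2.91e-07). After correction for gene length Ripk1 stood at -0.56 (edgeR adjusted p = 2.89e-07). The exons of Ripk1 overlap those of Serpinb6a on the opposite strand over 241 bases, 2.89% of its exonic length, and Serpinb6a was higher in the same libraries (log2 fold change 1.73, edgeR adjusted p = 2.98e-09); a processed pseudogene with no row in the table covers another 6.12%. Tradd made up 75.9%, 79.2% and 76.1% of both adaptors per kilobase in TNFR2-deficient libraries, against 46.2%, 55.1% and 55.5% in TNFR2 positive libraries. The groups did not overlap (two-sided exact permutation p = 0.1). This share does not include the correction for gene length, after which Tradd stood at 0.58 and Ripk1 at -0.56.

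Of the TRAF adaptors Traf1 was lower, and Traf2 did not pass the test. Traf1 (ENSMUSG00000026875), an adaptor without a RING domain that pairs with TRAF2, was at 56.4, 60.8 and 59.8 CPM in TNFR2-deficient libraries, against 91.3, 93.7 and 88.1 CPM in TNFR2 positive libraries. It was 1.54-fold lower (log2 fold change -0.63, SE 0.0597, 95% interval -0.76 to -0.49, edgeR adjusted p = 2.86e-06). Traf1 has the largest total exonic length of the 10 genes, 8.82 kilobases, and after correction for length its log2 fold change was -0.25 (edgeR adjusted p = 0.00233). Traf2 (ENSMUSG00000026942), the adaptor that TNFR2 binds directly, was at 54.3, 58.1 and 59.9 CPM in TNFR2-deficient libraries, against 54.6, 56.8 and 54.0 CPM in TNFR2 positive libraries. These ranges overlapped, and the log2 fold change was 0.06 with a 95% interval of -0.08 to 0.20 (edgeR adjusted p = 0.406). Traf2 was lower when scaled by Trac (log2 fold change -0.50, edgeR adjusted p = 8.63e-06) and higher after correction for gene length (0.18, edgeR adjusted p = 0.0163), so that its direction rests on the scaling. No scaling of the library can move the share within the pair. Traf1 made up 37.5%, 37.7% and 36.6% of the sum per kilobase in TNFR2-deficient libraries, against 49.2%, 48.9% and 48.6% in TNFR2 positive libraries. The groups did not overlap (two-sided exact permutation p = 0.1). This share does not include the correction for gene length, which moved the 2 genes by different amounts, to -0.25 for Traf1 and 0.18 for Traf2.

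The IAP ubiquitin ligases fell together. Birc3 (ENSMUSG00000032000), encoding cIAP2, was at 198, 190.4 and 197 CPM in TNFR2-deficient libraries, against 316, 281 and 281 CPM in TNFR2 positive libraries. Birc2 (ENSMUSG00000057367), encoding cIAP1, was at 87.9, 84.1 and 86.9 CPM in TNFR2-deficient libraries, against 147, 128 and 137 CPM in TNFR2 positive libraries. TNFR2 positive library 1 was the highest for both genes, and neither gene had groups that overlapped. Birc3 was 1.5-fold lower (log2 fold change -0.58, SE 0.0635, edgeR adjusted p = 7.92e-06), at -0.53 without TNFR2 positive library 1 (edgeR adjusted p = 2.76e-09). Birc2 was 1.59-fold lower (log2 fold change -0.67, SE 0.0652, edgeR adjusted p = 3.31e-06), at -0.62 without that library (edgeR adjusted p = 1.7e-09). The genes are paralogs, and how reads that match both were counted is not stated in the labels. Birc3 made up 67.4% ± 0.0699 of the sum of both per kilobase in TNFR2-deficient and 66.1% ± 0.74 in TNFR2 positive libraries (SD, n = 3 each), a small difference without overlap (two-sided exact permutation p = 0.1). After Benjamini-Hochberg adjustment over the 5 within-pair shares given here, none is below 0.05, since 0.1 is the smallest raw exact p.

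**Figure D2:**
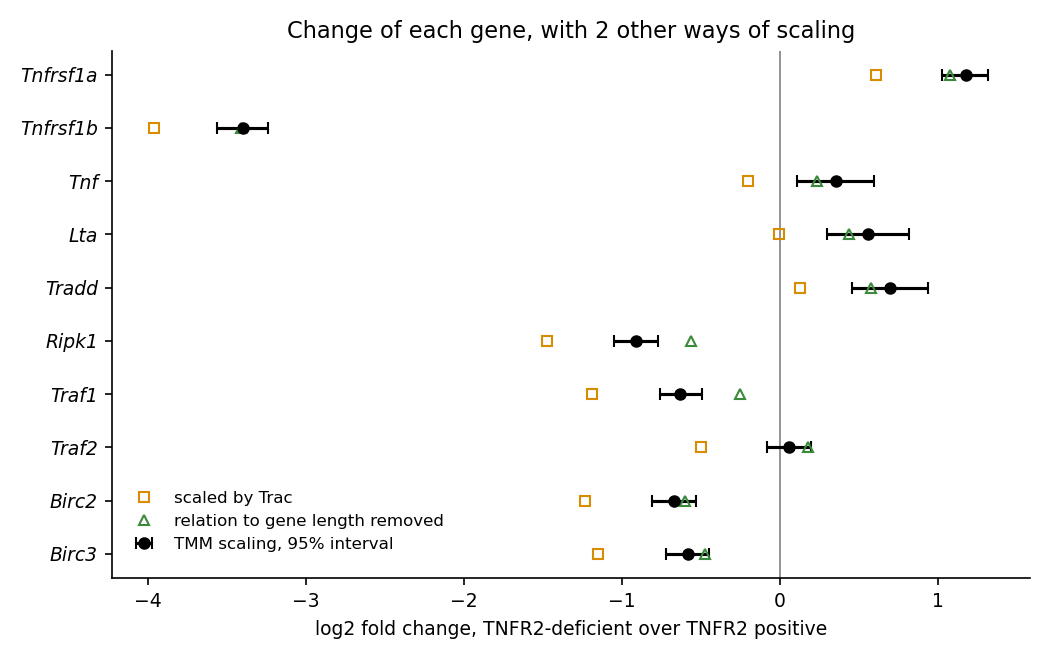
Log2 fold change of each gene, TNFR2-deficient over TNFR2 positive, with its 95% interval under TMM scaling (black), scaled by Trac (open squares) and after correction for gene length (open triangles). Under TMM scaling the rises of Tnfrsf1a, Tradd, Lta and Tnf run from 1.18 down to 0.36; scaled by Trac those of Tnf and Lta turn negative and Traf2 falls, while the falls of Tnfrsf1b, Ripk1, Traf1, Birc2 and Birc3 keep their sign.

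Counted together, 4 of the 10 genes were higher (Tnfrsf1a, Tradd, Lta and Tnf), 5 lower (Tnfrsf1b, Ripk1, Birc2, Traf1 and Birc3) and 1 not called. Of all 17022 genes tested, 69.3% were called in either direction at an edgeR adjusted p below 0.05, 35.1% higher and 34.2% lower in TNFR2-deficient libraries. Groups that did not overlap were found for 74.5% of the tested genes, against 9 of these 10. A call with at least a 2-fold change was made for 21.5% of the tested genes and for 2 of these 10, Tnfrsf1b and Tnfrsf1a. With most genes of the table called, a call or groups without overlap are common in these libraries, and nothing particular to the 10 genes is read from their counts. Tnfrsf1b, the gene by which the groups are named, had a large change: 96.7% of tested genes had a smaller absolute log2 fold change, against 82.4% for Tnfrsf1a, 75.5% for Ripk1 and between 6.12% and 65.8% for the other 7. The median log2 fold change of the 10 was -0.26, and 0.06 without Tnfrsf1b, beside 0.04 over all tested genes. Without TNFR2-deficient library 3 the counts were 3 higher and 5 lower, beside 30.7% higher and 32.7% lower over all genes then tested. Scaling by Trac, which was itself 1.48-fold higher in TNFR2-deficient libraries, shifted the median of all genes by -0.56; it left 1 of the 10 higher and 6 lower, beside 8.78% higher and 62.1% lower over all genes, and 12.4% of the called genes of the whole table on the higher side in place of 50.7%.

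Set side by side per kilobase of exons, the order of the 10 transcripts changed mainly through the receptors. In TNFR2-deficient libraries Birc3 was first, at 38.9 ± 0.814 CPM per kilobase, followed by Lta, Birc2, Tnfrsf1a, Tradd, Traf2, Traf1, Tnf, Ripk1 and, last, Tnfrsf1b at 2.06 ± 0.132 CPM per kilobase. The neighbours Lta and Birc2, Tnfrsf1a and Tradd, and Traf1 and Tnf overlapped between libraries of that group, so their order is not set. In TNFR2 positive libraries Birc3 was again first, at 58.4 ± 3.97 CPM per kilobase, followed by Birc2, Tnfrsf1b at 21.7 ± 0.649, Lta, Traf2, Traf1, Tradd, Ripk1, Tnfrsf1a at 6.68 ± 0.241 and, last, Tnf at 4.79 ± 0.0532 CPM per kilobase (SD, n = 3 each). There the pairs Traf2 and Traf1, and Tradd and Ripk1, overlapped. Tnfrsf1b thus held rank 10 of 10 in TNFR2-deficient and rank 3 in TNFR2 positive libraries, and Tnfrsf1a rank 4 in TNFR2-deficient and rank 9 in TNFR2 positive libraries. Lengths are those of a GRCm38 annotation, so levels between genes are approximate.

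**Figure D3:**
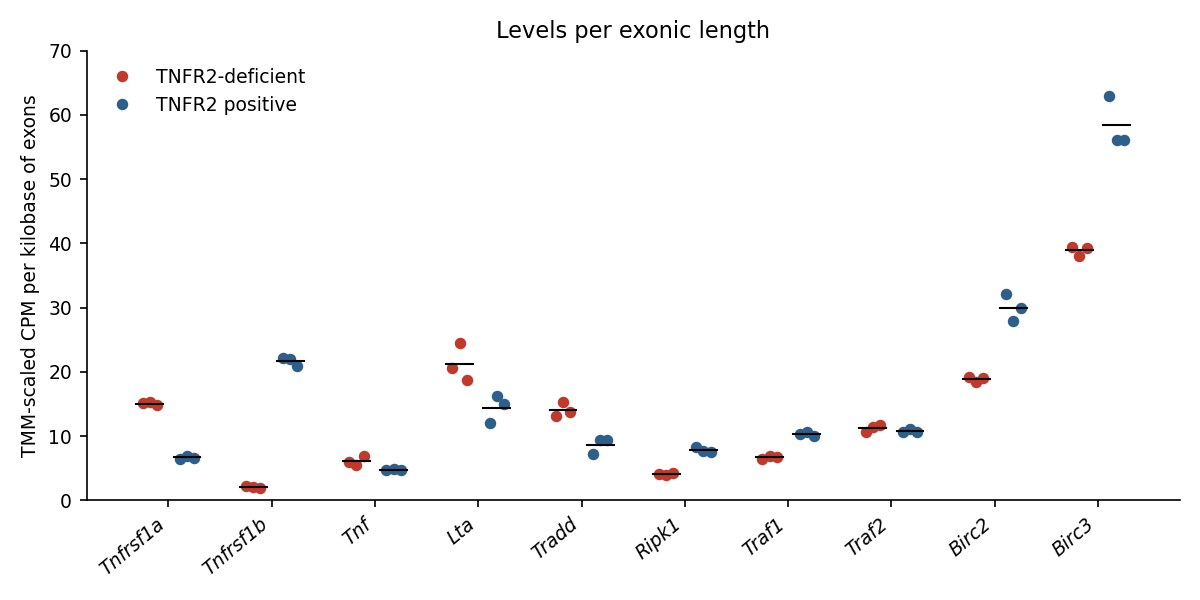
Level of each gene per kilobase of exons in each library, as TMM-scaled CPM per kilobase; points are libraries and black lines group means (n = 3 each), with TNFR2-deficient at the left of each pair. Birc3 is highest in both groups, and Tnfrsf1b averages 2.06 in TNFR2-deficient and 21.7 in TNFR2 positive libraries.

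Relative to Trac, which encodes the invariant part of the alpha chain of the T cell receptor, 1 of the 10 genes was higher and 7 lower without overlap of the groups. Over the 17021 genes tested other than Trac, 10.1% were higher and 63.6% lower relative to Trac without overlap, so that a lower ratio is the common case. Tnfrsf1b was at 4.05%, 3.76% and 3.51% of the Trac count in TNFR2-deficient libraries, against 59.4%, 59.5% and 57.6% in TNFR2 positive libraries, 15.6-fold lower. Tnfrsf1a was at 19.2%, 18.6% and 18.4% in TNFR2-deficient libraries, against 11.7%, 12.7% and 12.4% in TNFR2 positive libraries, 1.53-fold higher. Both receptors thus kept the direction they had in CPM. Ripk1 was at 16.7% ± 0.808 in TNFR2-deficient and 46.3% ± 2.06 in TNFR2 positive libraries (SD, n = 3 each, as for the genes that follow). Traf1 was at 28.3% ± 0.643 in TNFR2-deficient and 64.5% ± 1.53 in TNFR2 positive libraries, and Traf2 at 27.5% ± 1.15 in TNFR2-deficient and 39.1% ± 0.955 in TNFR2 positive libraries. Both TRAF adaptors were thus lower relative to Trac, although Traf2 was not called in CPM. Birc2 was at 41.4% ± 1.71 in TNFR2-deficient and 97.4% ± 6.50 in TNFR2 positive libraries, and Birc3 at 93.6% ± 3.66 in TNFR2-deficient and 207.3% ± 12.3 in TNFR2 positive libraries. Tnf was at 4.77%, 4.27% and 5.43% in TNFR2-deficient libraries, against 5.44%, 5.61% and 5.65% in TNFR2 positive libraries, so that the groups came close to touching. Lta, at 14.1% ± 1.75 in TNFR2-deficient and 14.2% ± 2.21 in TNFR2 positive libraries, and Tradd, at 12.5% ± 0.758 in TNFR2-deficient and 11.45% ± 1.83 in TNFR2 positive libraries, overlapped (two-sided exact permutation p = 0.9 and 0.6). For the 8 genes that did not overlap the exact p was 0.1, the smallest possible, and 0.12 after Benjamini-Hochberg adjustment over 13 ratios to Trac. With the CD3 chains Cd3e and Cd3d in place of Trac, 1 gene was higher and 8 were lower without overlap. Over all genes 5.23% were higher and 81.8% lower. The higher gene was Tnfrsf1a, at a mean of 24.15% in TNFR2-deficient and 20.71% in TNFR2 positive libraries. That rise was 1.17-fold, smaller than the 1.53-fold relative to Trac. B cells also express Lta, Traf1 and Birc3, and B cell markers were abundant in both groups, so a ratio to Trac does not give a level per T cell.

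Relative to Tnfrsf1b, the other 9 genes were all higher in TNFR2-deficient libraries, without overlap. So were 95.7% of the 17021 genes tested other than Tnfrsf1b, with 0.964% lower: the ratios are set largely by the fall of Tnfrsf1b itself, and their direction says nothing particular to the 9 genes. Tnfrsf1a was at 474.0%, 494.9% and 523.3% of the Tnfrsf1b level in CPM in TNFR2-deficient libraries, against 19.8%, 21.3% and 21.5% in TNFR2 positive libraries, a 23.8-fold higher ratio. Tradd, Lta and Tnf followed with ratios 17.2-fold, 15.6-fold and 13.5-fold higher. Traf2 had a ratio 11.0-fold higher, at 733.5% ± 82.5 in TNFR2-deficient and 66.4% ± 1.67 in TNFR2 positive libraries (SD, n = 3 each). The ratios of Birc3, Traf1, Birc2 and Ripk1, which fell in CPM, were 7.05-fold, 6.84-fold, 6.64-fold and 5.62-fold higher. For each of the 9 the two-sided exact permutation p was 0.1, before and after adjustment over the 10 ratios to Tnfrsf1b.

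**Figure D4:**
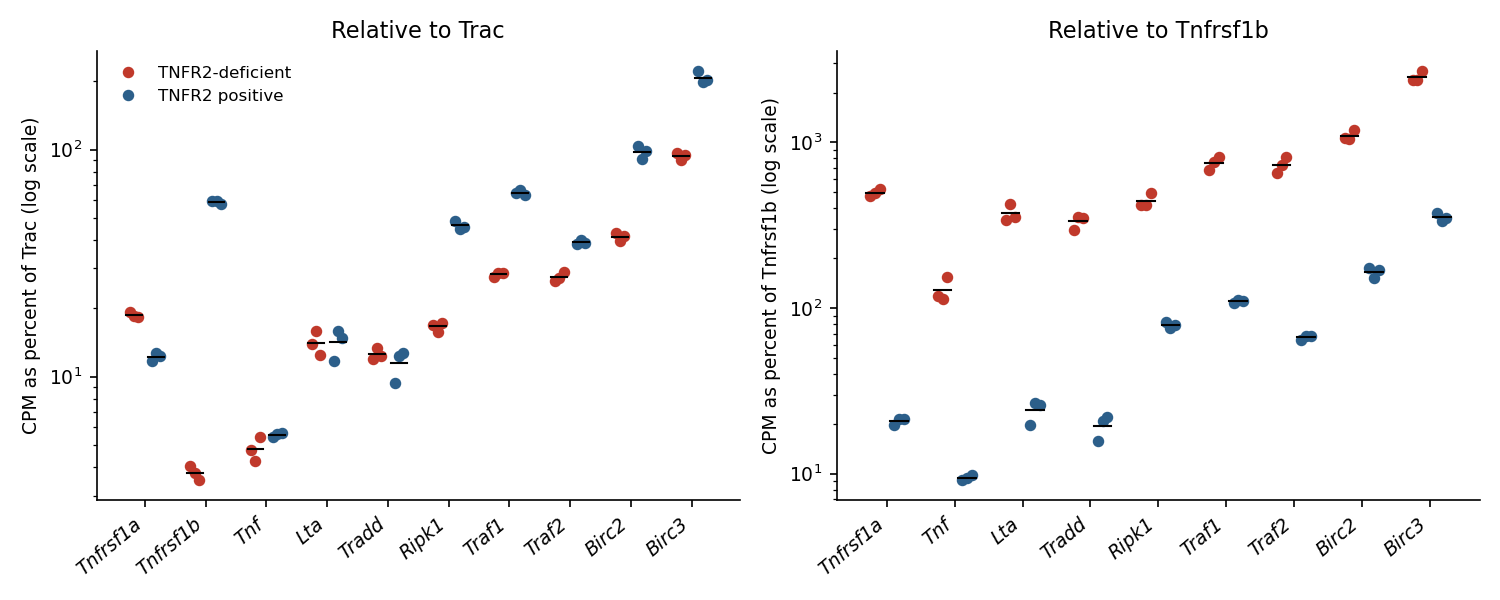
Level of each gene as a percent of Trac (left) and of Tnfrsf1b (right) in the same library, both on log axes; points are libraries and black lines group means (n = 3 each), with TNFR2-deficient at the left of each pair. Relative to Trac only Tnfrsf1a is higher without overlap in TNFR2-deficient libraries, and relative to Tnfrsf1b the 9 genes are.

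The 52 other genes of the pathway were all tested; 15 were higher and 28 lower in TNFR2-deficient libraries and 9 were not called, with a median log2 fold change of -0.24 beside 0.04 over all genes. The shares over all genes are the 35.1% higher and 34.2% lower given above, against which the counts of this list and of its 7 parts are to be read. Tnfrsf14, Ikbkb, Tnfaip3, Cflar, Traf3, Rel and Jun were named by a rule of size and adjusted p, and the other pathway genes by hand after their values were seen. Among 8 partners of the ligands and receptors 5 rose and 3 fell. Tnfrsf14, the receptor HVEM, which also binds lymphotoxin alpha, fell to 4.46 ± 0.261 CPM in TNFR2-deficient libraries, against 17.6 ± 3.51 CPM in TNFR2 positive libraries (log2 fold change -1.98, edgeR adjusted p = 3.93e-07). Ltb, which forms a membrane-bound ligand with lymphotoxin alpha, rose with Lta (0.46, adjusted p = 0.000229), and Adam17, the protease that sheds TNF and both receptors, fell (-0.48, adjusted p = 6.43e-05). Scaled by Trac, Ltb turned to -0.10 and was not called (edgeR adjusted p = 0.278), and after correction for gene length Adam17 stood at -0.20 (edgeR adjusted p = 0.00274).

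Among 14 ubiquitin ligases and kinases of the TNFR1 complex 3 rose and 10 fell, with a median log2 fold change of -0.44. Ikbkb, the catalytic IKK subunit IKK-beta, fell to 177.6 ± 2.54 CPM in TNFR2-deficient libraries, against 316.6 ± 16.9 CPM in TNFR2 positive libraries (log2 fold change -0.83, edgeR adjusted p = 3.08e-07), but stood at -0.14 after correction for gene length (adjusted p = 0.0593). Xiap, a further IAP, fell by 0.97 on the log2 scale (edgeR adjusted p = 3.97e-06), and stood at -0.56 after that correction (adjusted p = 7.78e-07). Traf5 was not called (log2 fold change 0.04, edgeR adjusted p = 0.544). Of the linear ubiquitin ligase, Rnf31 fell by 0.24 while Rbck1 and Sharpin had log2 fold changes of 0.21 and 0.54 (edgeR adjusted p = 0.0029, 0.00732 and 2.18e-05). The call of Rnf31 was lost after correction for gene length (-0.07, edgeR adjusted p = 0.295). Scaled by Trac, Rbck1 and Sharpin turned to -0.36 and -0.03 (edgeR adjusted p = 0.000127 and 0.755), and Traf5 fell (-0.52, adjusted p = 5.08e-06).

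Among 9 deubiquitinases and feedback inhibitors 4 rose and 3 fell. Tnfaip3, the ubiquitin-editing inhibitor A20 and an NF-kB target, changed most, to 74.5 ± 2.67 CPM in TNFR2-deficient libraries, against 399.7 ± 31.3 CPM in TNFR2 positive libraries (log2 fold change -2.42, edgeR adjusted p = 1.77e-10). Nfkbia, the inhibitor IkB-alpha and also an NF-kB target, was not called (log2 fold change 0.12, edgeR adjusted p = 0.117), but was lower when scaled by Trac (-0.44, adjusted p = 9.42e-05). Cyld, which removes ubiquitin chains from RIPK1, fell by 0.84 on the log2 scale (edgeR adjusted p = 4.91e-06), and stood at -0.30 after correction for gene length (adjusted p = 0.000117). The 4 that rose, Otulin, Spata2, Nfkbib and Nfkbie, all turned negative when scaled by Trac (-0.28, -0.25, -0.16 and -0.34). Otulin, Spata2 and Nfkbie were then called lower (edgeR adjusted p = 0.00189, 0.00636 and 0.000376), and Nfkbib was not called (0.0706). Of 5 genes of the cell death arm 1 rose, Fadd (log2 fold change 0.63, edgeR adjusted p = 0.000152), and 1 fell, Cflar, the caspase-8 inhibitor c-FLIP (-0.69, adjusted p = 4.21e-06). After correction for gene length Cflar stood at -0.16 (edgeR adjusted p = 0.0146), and scaled by Trac the call of Fadd was lost (0.07, adjusted p = 0.587). Casp8, Ripk3 and Mlkl were not called; Casp8 was lower after the length correction (-0.19, adjusted p = 0.00277), and scaled by Trac Casp8 and Ripk3 were lower (-0.67 and -0.50, adjusted p = 2.61e-07 and 2.1e-05).

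Of 4 genes of the alternative NF-kB arm that TNFR2 can engage 3 fell and 0 rose. Traf3, which holds the kinase NIK in check, was at 62.9 ± 2.80 CPM in TNFR2-deficient libraries, against 132.1 ± 16.9 CPM in TNFR2 positive libraries (log2 fold change -1.07, edgeR adjusted p = 8.25e-07). Map3k14, which encodes NIK, fell by 0.47 and Relb by 0.34 (edgeR adjusted p = 3.92e-05 and 0.000481). Of 3 canonical subunits Rel and Nfkb1 fell by 1.21 and 0.94 on the log2 scale (edgeR adjusted p = 2.67e-07 and 1.73e-07), and Rela was not called (0.08, adjusted p = 0.201). After correction for gene length Nfkb1 and Map3k14 stood at -0.43 and -0.23 (edgeR adjusted p = 1.91e-06 and 0.00163), and scaled by Trac Rela was lower (-0.48, adjusted p = 8.1e-06). In the MAP kinase arm 2 of 9 genes rose and 6 fell, among them Jun, a subunit of AP-1, by 1.26 on the log2 scale (edgeR adjusted p = 7.39e-09). After correction for gene length Mapk8 turned from -0.34 to 0.15 (edgeR adjusted p = 0.0435), and Mapk9 was not called (0.05, adjusted p = 0.461). The 2 that rose, Map2k6 and Map2k7, were not called when scaled by Trac (-0.13 and 0.00, edgeR adjusted p = 0.289 and 0.953). Scaled by Trac, 2 of the 52 genes were higher and 41 lower, beside the 8.78% and 62.1% of all genes given above. The 2 were Rhbdf1 and Tab1, at 0.41 and 0.29 on the log2 scale (edgeR adjusted p = 0.0114 and 0.00318). Under TMM scaling they stood at 0.97 and 0.86 (edgeR adjusted p = 2.8e-05 and 9.61e-07). After correction for gene length they stood at 1.12 and 0.81 (edgeR adjusted p = 8.24e-07 and 7.36e-08). Across all genes with a known length, longer genes were lower (Spearman rho -0.298 over 16643 genes, which share the same libraries), and after correction for this 16 of the 52 were higher and 24 lower, beside 39.2% and 28.9% of all genes.

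**Figure D5:**
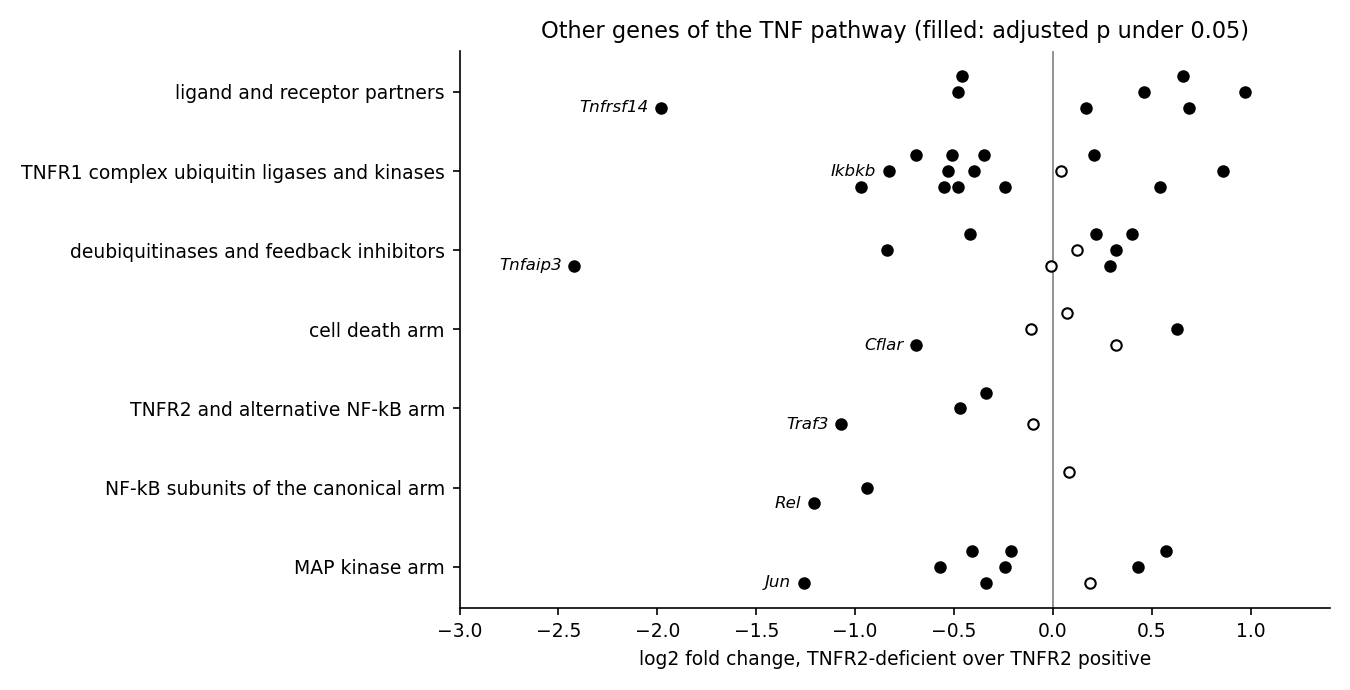
Log2 fold change, TNFR2-deficient over TNFR2 positive, of 52 other genes of the TNF pathway in 7 lists; filled points had an edgeR adjusted p below 0.05 and open points did not. Tnfaip3 (-2.42) and Tnfrsf14 (-1.98) lie farthest from 0, and the highest value is 0.97.

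The 5 genes whose pattern over the 6 libraries was most like that of Tnfrsf1b were Gbp2b, Tnfrsf9, Il2rb, Izumo1r and Adgrg5. Likeness was the root mean square difference of log2 CPM centred on each gene's mean, over 9623 named genes whose mean level reached 5 CPM, and came to 0.0915, 0.103, 0.104, 0.105 and 0.146. Il2rb, a chain of the IL-2 receptor, was at 22.7, 19.0 and 21.8 CPM in TNFR2-deficient libraries, against 219, 209.7 and 218 CPM in TNFR2 positive libraries. Izumo1r, the folate receptor 4 known from Treg cells, was at 4.91 ± 0.293 CPM in TNFR2-deficient and 48.3 ± 3.93 CPM in TNFR2 positive libraries, and Tnfrsf9, the receptor 4-1BB, at 2.09 ± 0.121 CPM in TNFR2-deficient and 21.9 ± 2.13 CPM in TNFR2 positive libraries (SD, n = 3 each). None of the other 9 genes described above was among the 5. The largest fall among those 9 was that of Ripk1 (log2 fold change -0.91), so their absence follows from the measure. With 2 groups of 3 the measure reflects mostly the size of the difference between the groups.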

How the data were processed

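The authors deposited whole-number read counts per Ensembl mouse gene for 6 poly(A)-selected libraries, without normalization and with no molecular identifiers described. HISAT2 2.1.0 and the build GRCm39 are named in the submitters' processing notes; the sources used here do not say how reads were counted, on which annotation and strand, or what became of reads mapping to several places. Columns were matched to samples by title. Of 32377 identifiers 30529 had a symbol in the table supplied. After filterByExpr and TMM scaling, the quasi-likelihood test of edgeR 4.0.16 (glmQLFTest, R 4.3.3, intercept and group) was run, with Benjamini-Hochberg adjustment over 17022 genes and a threshold of 0.05; the script was tested on simulated data. SE is the log2 fold change over the root of the F statistic, with 95% intervals from it. Ratios to Trac and Tnfrsf1b used two-sided exact permutation tests. Exonic lengths are from GENCODE M21 (GRCm38) and gave 97.8% of the tested genes a length; promoters are from RefSeq (GRCm38.p6). Protein sequences were not used here. No 2 libraries of a group agreed within sampling noise (chi-square per gene of 2.43 or more). Alternatives were DESeq2 1.42.0, limma-voom (limma 3.58.1), other scalings and filters, and a length correction by splines with 4 degrees of freedom. Further ones were a replicate block, removal of mitochondrial genes and of the marker genes of cell types other than T cells, and leaving out each library. Removing those genes leaves all reads of the 10 genes in place, so it does not test what other cell types add to them. The genes, lists and tests were chosen with earlier results of these data known. The genes named by rule were the 10, the pathway genes with an absolute log2 fold change of at least 1 and an adjusted p below 0.05 or else the one with the smallest adjusted p in each of 7 lists, Foxp3, Trac and Rag1 as references, and the 5 genes most like Tnfrsf1b; a further reference gene is not reported here. Other genes were named after their values were seen.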

Additional observations from a re-analysis of the deposited data

How the results depend on the processing

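Of 170 comparisons of the 10 genes' log2 fold changes with an alternative, 163 kept direction and side of the threshold. Scaled by Trac, log2 fold changes were -0.20 for Tnf, -0.0046 for Lta and -0.50 for Traf2, all reversed, and 0.13 for Tradd, no longer called; 1495 genes of the table were then higher and 10575 lower, 1 of the 10 genes was higher, and 2 pathway genes were higher. This follows from the construction, since Trac rose. After correction for gene length, Tnf stood at 0.24 and was not called, and Traf2 at 0.18 and was called. Leaving out 1 library at a time gave log2 fold changes of 0.26 to 0.42 for Tnf, whose call was lost once. The replicate block gave 6005 genes higher and 5851 lower, against 5983 and 5819, and changed no call of the 10 genes; same-numbered libraries of the groups correlated at 0.0372, 0.054 and -0.0611 in their deviations, so the numbers were not taken as pairs. Other counts stayed within 1.5 times. Tnf, with 504 to 699 reads a group, is the gene least well set by depth.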
